A study of Schizosaccharomyces pombe with 9 samples.

Results

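The transcriptome of wild-type fission yeast in log phase was described from 3 poly(A)+ RNA libraries, ranked feature by feature. All 6988 features of the deposited count table were ordered by their mean CPM (counts of a feature per M counted in its library) over the WT libraries, which are 3 of the 9 libraries of the series. The organism is Schizosaccharomyces pombe. The WT strain was Sp1, h-, grown at 30 °C in the rich medium YES, with 3 libraries labelled as biological replicates. The series also holds 3 libraries of strain ASY240, h-, labelled rsm1∆::natMX, and 3 of strain IAP105, h-, labelled nup211-1435* asp1-WT::kanMX, in the same medium and phase. Rsm1 and Nup211 belong to the nuclear basket, and the series title ties both to how RNA ends are made and transcription stops. The mutant strains are set beside WT here only to see whether the WT ranking and its most variable genes look the same in other cultures. Both mutant strains carry a drug-resistance marker that WT lacks, so marker and mutation cannot be told apart.

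A yeast that grows fast on glucose spends much of its transcription on making ribosomes and on turning sugar into ethanol. Ribosomal protein genes are mostly short and many exist as pairs of paralogues. Genes for meiosis, spore formation and mating are kept low until nitrogen runs out and cells of opposite mating type meet, and genes near the ends of chromosomes I and II lie in heterochromatin. Poly(A) selection keeps mRNA and polyadenylated noncoding RNA and leaves behind most ribosomal, transfer and small nuclear RNA.

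The WT libraries held 25.3, 26.3 and 28.1 M counts, and all 9 libraries held between 20.98 and 28.11 M. A count of 3, taken as the floor, was worth 0.107 to 0.119 CPM in a WT library, and this covers counting error only. No pair of WT libraries agreed within sampling noise (chi-square per degree of freedom 6.58, 7.97 and 11.9), so each was kept as a replicate. The pairs were close all the same, with Spearman's rho of 0.998 across 5917 features, and 14, 14 and 18 of these differed by at least 2-fold. The gene rsm1 itself had 34.4 ± 0.451 CPM in WT and 32.9 ± 1.53 in the libraries labelled rsm1 deletion (SD, n = 3 each), so the count does not bear out that label. Its annotated exon is overlapped over 97.5% by features on the opposite strand, and counts from parts that a deletion keeps check nothing. In the nup211-1435 libraries, where a count does not show the allele, nup211 had 275 ± 6.75 CPM against 169 ± 10.3 in WT. It was also higher in the libraries labelled rsm1 deletion, with 258 ± 18.9 CPM, so the higher level is not particular to the nup211-1435 strain.

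The counts were concentrated in few features. The 10 most abundant took 6.42%, 6.37% and 6.67% of the WT libraries, the 100 most abundant 28.8% ± 0.167 and the 500 most abundant 60.8% ± 0.125 (SD, n = 3). The level fell steeply with rank, as 79 features held 25% of all counts, 294 held 50%, 1073 held 75% and 4468 held 99%. At least 1000 CPM was reached by 210 features, which together took 43.1% of the counts. Another 1637 features at 100 to 1000 CPM took 42.0%, and 3008 at 10 to 100 CPM took 14.4%. The lower end was as long, with 1062 features at 1 to 10 CPM, 435 at 0.1 to 1, 227 above 0 but under 0.1, and 409 with no count in any WT library. The median was 42.1 CPM over all features and 69.1 CPM over the 5107 protein-coding ones, and the leading gene stood 163 times above the latter. No gap separated these groups, since the 100th feature had 1707 CPM and the next 1705.

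**Figure D1:**
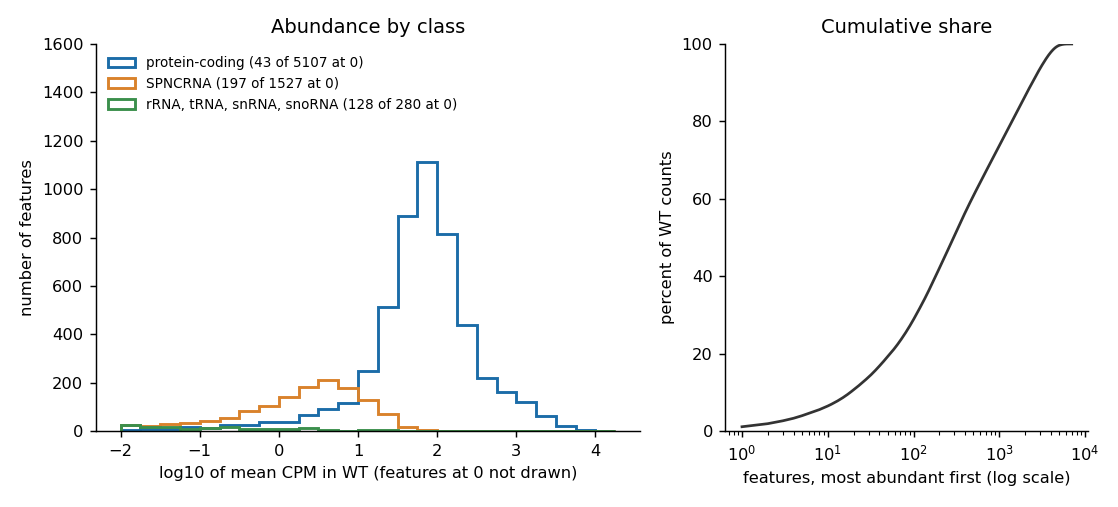
Left, number of features against log10 of the mean CPM in the 3 WT libraries, for protein-coding features, SPNCRNA features and the other RNA classes, in bins of 0.25; the 43, 197 and 128 features at 0 are not drawn. Right, cumulative percent of WT counts against the number of features on a log scale, from the most abundant on; 294 features reach 50%.

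The most abundant transcript was fba1, which encodes fructose-bisphosphate aldolase of glycolysis, with 10940, 11204 and 11682 CPM in WT replicates 1, 2 and 3. Next came tef3, the fungal elongation factor eEF3, with 7870, 7774 and 8204 CPM. The alcohol dehydrogenase gene adh1 had 7426, 7254 and 7656 CPM. These leading genes were all highest in replicate 3, by less than 1.1-fold over the lowest library. The ribosome-associated Hsp70 gene sks2 had 6435, 6610 and 6622 CPM. The pyruvate decarboxylase gene pdc101, whose enzyme makes the acetaldehyde that Adh1 reduces, had 6337, 6408 and 6782 CPM. The phosphoglycerate kinase gene pgk1 had 6036, 6077 and 6082 CPM, the closest agreement among the first 10. The elongation factor EF-1 alpha gene tef103 had 4667, 4717 and 5415 CPM, with replicate 3 standing apart, and its paralogues tef101 and tef102 are near-identical, so reads may be split among them. The pyruvate kinase gene pyk1 had 4945, 4684 and 4904 CPM. Actin, act1, had 4762, 4776 and 4636 CPM. The cytosolic Hsp70 gene ssa2 had 4743, 4197 and 4667 CPM, lowest in replicate 2.

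Ranks 11 to 20 were taken by rpl8, tpi1 (triosephosphate isomerase), hsp90, pma1 (the plasma membrane proton pump), tdh1 (glyceraldehyde-3-phosphate dehydrogenase), rpl402, eno101 (enolase), rps102, cpc2 (the ribosomal RACK1) and rps3, with 4458 ± 11.1 CPM at the upper and 3898 ± 24.9 at the lower end. By the lists of genes used here, the first 20 held 6 genes of glycolysis, 5 for ribosomal proteins, 3 for chaperones, 2 of fermentation and 2 of translation elongation, with act1 and pma1. Among the first 100 were 54 ribosomal protein genes, 8 of glycolysis, 6 for chaperones, 5 for elongation factors, and 2 each of fermentation, initiation and amino acid synthesis. A further 18 were in none of the lists. These included the translation helicase gene sum3, the pentose phosphate genes gnd1 and tkt1, the ubiquitin fusions ubi1 and ubi3 whose tails are ribosomal proteins, the cyclophilin gene ppi1, the ATP synthase gene atp2 and the branched-chain aminotransferase gene eca39. Also among the 18 were the EF-1 gamma gene SPAC29A4.02c, tif512 (annotated as putative elongation factor eIF5A) and the heat shock protein gene pss1. The counts for elongation factors and chaperones leave them out. The only feature of the first 100 that encodes no protein was prl53, a poly(A)-bearing RNA at rank 42 with 2487, 2591 and 2544 CPM.

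**Figure D2:**
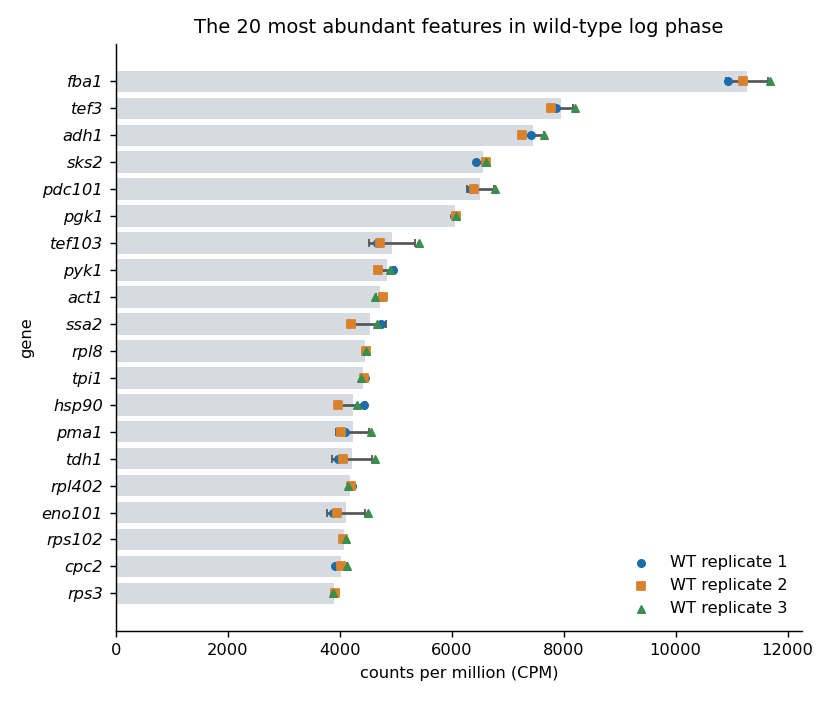
Mean CPM of the 20 most abundant features in wild-type log phase. Bars are means of 3 WT libraries that start at 0, error bars are the SD (n = 3) and the points are the libraries; fba1 leads at 11275 ± 376 CPM and tef103, tdh1 and eno101 show replicate 3 above the others.

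A long transcript gives more counts than a short one at the same number of molecules, so levels were also set per length, as TPM on the exon lengths of the reference annotation. On that scale fba1 still led, with 10689 ± 469 TPM (SD, n = 3), and 7 of the 10 highest were ribosomal protein genes, all short. They were rpl3401 at 6708 ± 263 TPM, rps2502 at 6496, rps13 at 6200, rpl8 at 5991, rpl26 at 5788, rps21 at 5637 and rps20 at 5482, the last with 93.5% of its exon overlapped by features on the opposite strand. The other two were adh1 at 5649 TPM and tpi1 at 5601 TPM. The order of the middle of this list was within the spread of its members, as adh1, rps21 and tpi1 lay within 1 SD of adh1 (205 TPM). The gene tef3, second in CPM, was only at rank 87 in TPM with 2914, and pma1 at rank 185 with 1148, both among the longer transcripts. The 100 most abundant protein-coding genes had a median exon length of 910 nt and an intron in 26.0%, against 1682 nt and 48.3% of all 5107.

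The 139 cytosolic ribosomal protein genes took 22.4%, 22.2% and 21.5% of the counts in the WT libraries. Their levels ranged from 112 CPM (rpl1201) to 4458 (rpl8), with a median of 1421 CPM and of 2862 TPM, against medians of 69.1 CPM and 45.4 TPM over all protein-coding genes, and 136 of 139 were among the 1000 most abundant. The members were unequal within pairs of paralogues. Of the genes for protein L34, rpl3401 had 6708 TPM and rpl3402 had 503 TPM. The paralogues rpl1603 and rpl3002 were also low, with 83.9 and 384 TPM. Where paralogues are near-identical, the authors' counting could split or drop their reads, and how it treated them is not stated.

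The other genes of translation were high as well. The elongation list (8 genes), which lacks the EF-1 gamma gene SPAC29A4.02c, took 2.43% ± 0.113 of the counts. Its members ran from 737 CPM (eft201) to 7949 (tef3), and all were among the 1000 most abundant. Their median was 2447 TPM, and tef5, the EF-1 beta subunit gene, led with 4118 TPM over tef103 with 3939 TPM. Of 9 initiation factor genes, tif1 (eIF4A) was highest with 2927 CPM, tif471 (eIF4G) had 1711, the poly(A)-binding protein gene pabp had 1351, and tif452, a cap-binding eIF4E isoform, was lowest with 121 CPM.

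Glycolysis took 4.39% ± 0.128 of the counts with 13 genes, 12 of them among the 1000 most abundant, and its median of 3038 TPM was the highest of all lists used here. Beside fba1 on the TPM scale stood tpi1 with 5601, gpm1 (phosphoglycerate mutase) with 5441 and pgk1 with 4480 TPM. The entry enzymes were lower, with 761 TPM for hxk2, 296 TPM for hxk1 (hexokinases), 701 TPM for pfk1 (phosphofructokinase) and 973 TPM for pgi1. The second enolase gene, eno102, had 7.002 TPM against 3425 for eno101. The 8 genes of fermentation took 1.601% ± 0.0386, led by adh1 with 7445 CPM and pdc101 with 6509, followed by the glycerol-3-phosphate dehydrogenase gene gpd1 with 1113 CPM. The other pyruvate decarboxylase genes, pdc201 and pdc202, were at 3.15 and 4.02 TPM against 4192 for pdc101.

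Hexose transport rested on few of its 8 genes. The transporter gene ght8 had 561 TPM, ght5 (high affinity) 134 and ght2 88.3 TPM, while ght6 and ght7 were under 1 CPM. Genes known to be repressed by glucose were low. Of 10 such genes 4 were below 10 CPM, among them fbp1 (fructose-1,6-bisphosphatase of gluconeogenesis) with 5.26, 5.24 and 4.77 CPM, and inv1 (invertase) with 4.55, 5.58 and 3.45 CPM. The exceptions were cit1 (citrate synthase) with 443 CPM and dak1 (dihydroxyacetone kinase) with 264.

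The 12 chaperone genes took 2.48% ± 0.068 of the counts. The constitutive members sks2, ssa2 and hsp90 had 3756, 2402 and 1991 TPM. The heat-inducible members were lower than these, with 128 TPM for hsp16, 52.3 for ssa1 and 38.9 for hsp104. The amino acid synthesis list (18 genes) ran from 118 CPM (arg3) to 3622 (met26, homocysteine methyltransferase), with 17 of 18 among the 1000 most abundant. Of 13 redox genes, sod1 (superoxide dismutase) had 1115 CPM, tpx1 (peroxiredoxin) 876, and gst1 (glutathione S-transferase) only 2.42. Of 11 histone genes, the H2B gene htb1 was highest with 1359 TPM and cnp1, the centromeric H3, lowest with 14.1 TPM. Poly(A) selection may take only part of an RNA class, and its effect on histone mRNA was not tested.

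The remaining lists filled the middle of the range. The cytoskeleton list (9 genes) had a median of 578 TPM, from 30.0 TPM (myo2, myosin) to 3097 (act1). The sterol and lipid list (11 genes) was led by the fatty acid synthase gene fas1 with 1794 CPM and ended with erg31 (a sterol desaturase) at 177 CPM. The cell wall list (14 genes) ran from bgs2, the spore wall glucan synthase, with 69.1 CPM to ecm33 with 1691. Among 6 membrane ATPase genes, pma1 had 4230 CPM and its paralogue pma2 0.580. RNA polymerase II subunits (12 genes) ran from 30.0 CPM (rpb9) to 595 (rpb1), and the 18 cell cycle genes from 13.2 CPM (puc1, a G1 cyclin) to 701 (cdc22, ribonucleotide reductase). The mitotic cyclin gene cdc13 had 433 CPM and the kinase gene cdc2 92.6. The 6 nuclear basket genes ran from 34.4 CPM (rsm1) to 252 (nup61). In the phosphate list (6 genes), pho84 (phosphate transporter) had 1416 CPM, pho1 (acid phosphatase) 1149 and tgp1 22.7, where pho84 and pho1 share 89.0% and 91.3% of their exons with another feature on the same strand.

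Genes of metal and vitamin uptake had list medians of 76.6 TPM for copper, 39.98 for zinc, 24.8 for thiamine and 10.8 for iron. In the iron list (13 genes), pcl1 had 295 CPM, the ferroxidase gene fio1 8.58 and shu1 (heme binding) 0.564. The copper transporter genes ctr5 and ctr4 had 105 and 89.6 CPM, and cox17 closed the copper list (7 genes) with 23.8. The zinc transporter gene zrt1 led the 7 genes of the zinc list with 255 ± 143 CPM and fet4 was lowest with 13.5. Of 5 thiamine genes, nmt1, known to be shut off by thiamine in the medium, had 0.514, 0.645 and 0.427 CPM, and thi4 had 96.8 CPM.

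**Figure D3:**
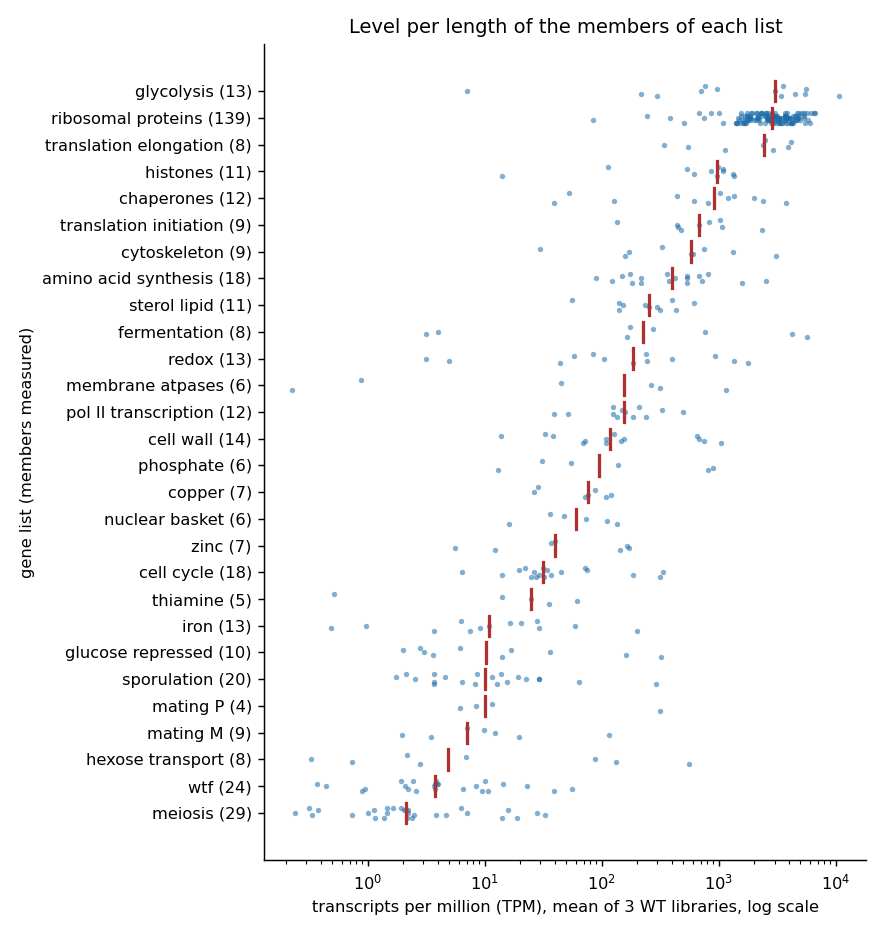
Mean TPM over the 3 WT libraries, on a log scale, of each measured member (points) of each gene list except the 2 tlh genes (median 0.0504 TPM, not drawn), with the list's median as a red bar; members at 0 are not drawn. Glycolysis (median 3038 TPM), ribosomal proteins (2862) and translation elongation (2447) lie at the top, and meiosis (2.13), the wtf family (3.78) and hexose transport (4.86) at the bottom.

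Genes of sexual differentiation were at the low end. The 29 meiosis genes had a median of 3.58 CPM, 23 of them were below 10 CPM and 7 below 1. The lowest was moa1 (meikin) with 0.160 CPM, about the floor of a library, followed by spo4 with 0.274 and mei3 with 0.353. The highest was mei2, the RNA-binding switch of meiosis, with 64.6, 59.6 and 63.8 CPM. Of 20 sporulation genes spo13 was lowest with 0.938 CPM, and spo20 and spo15, which also serve in growing cells, were highest with 346 and 325. The 24 wtf genes, selfish spore killers and their antidotes, had a median of 4.73 CPM, from 0.0733 CPM (wtf2) to 54.3 (wtf14), and they are near-identical in parts. The subtelomeric helicase genes tlh1 and tlh2 were at 0.0258 and 0.471 CPM.

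The mating type given by the labels was set against its markers. Of 9 M cell markers 8 were matched. Those 8 summed to 178, 185 and 160 CPM, led by mam1 (the M-factor exporter) with 66.0, 70.5 and 62.2 CPM and mfm2 (an M-factor precursor) with 44.1, 48.4 and 34.3, while the master regulator mat1-Mc was at 0 in all 9 libraries. Of 6 P cell markers 4 were matched, summing to 582 to 628 CPM, of which the protease gene sxa1 gave 544 to 590. The P-factor gene map2 had 7.04, 5.47 and 6.62 CPM, map3 12.4 ± 1.19 and map4 20.4 ± 0.389. Of the other M markers, mam3 had 38.8 ± 2.41 CPM, sxa2 18.1, mam2 7.26, mfm3 0.772 and mfm1 0.711. The levels of M and P markers thus overlapped. The 0 of mat1-Mc does not show that it was silent, as mat3-Mc has the same sequence in an M cell. How the counting treated reads shared by such copies is not stated. These levels thus neither bear out nor go against the labelled mating type. Meiotic markers (9 of 9 matched) summed to 77.5 to 81.3 CPM and markers of stationary or starved cells (5 of 5 matched) to 274 to 285 CPM, with all groups of markers close among the 3 libraries. In bulk RNA, few cells with much of a transcript and many cells with little cannot be told apart.

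Classes by identifier prefix were dominated by the chromosome prefixes. Features of chromosome I (SPA, 2344), II (SPB, 1876) and III (SPC, 925) took 44.5%, 37.0% and 17.4% of the counts, and all protein-coding genes together took 98.9%. Their leading genes were pdc101, pyk1 and hsp90 for SPA, fba1, sks2 and pgk1 for SPB, and tef3, adh1 and ssa2 for SPC. At least 1 count was found for 5064 of the 5107 protein-coding genes (99.2%), and 4918 (96.3%) reached 1 CPM.

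The 1527 SPNCRNA features, the annotated long noncoding RNAs, took 1.05%, 1.07% and 1.03% of the counts. Their median was 2.03 CPM, 938 reached 1 CPM, 4 reached 100 CPM and 197 were at 0. A single one, prl53, gave 24.2% of the counts of the class. It was followed by SPNCRNA.1626 with 268, 342 and 221 CPM and by rse1, a noncoding repressor of the mating regulator gene ste11, with 115, 131 and 96.7. Both were highest in replicate 2 and lowest in replicate 3. The fourth above 100 CPM was SPNCRNA.863 with 104 ± 16.8. Of the class, 846 overlapped a feature on the opposite strand over more than 50% of their exon and had a median of 3.19 CPM, against 0.616 for the other 681. The former were also longer, with a median exon of 1287 nt against 775. Per length the medians were closer, with 3.09 and 1.69 TPM. The libraries preserve strand, but whether the authors' counting used it is not given and was not tested. How far counts of a noncoding RNA and of its antisense partner are separate is thus not known here. Of the 100 most abundant protein-coding genes, 10% had such an overlap, among them rpl6 (100% of its exon) with 2887 CPM. Of all protein-coding genes 21.6% had it.

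RNA classes that carry no poly(A) tail were nearly empty. Genes for rRNA and tRNA exist in repeated copies, and how the counting treated reads shared by copies is not stated. Their shares thus do not measure how much poly(A) selection removed. The 49 SPRRNA features took 0.0103% of the counts, led by SPRRNA.49 (large subunit rRNA) with 64.5, 59.1 and 46.7 CPM, then SPRRNA.52 with 13.9 ± 2.75 and SPRRNA.46 with 12.3 ± 2.46. The 53 SPSNORNA features took 0.0233%, led by snR30 with 49.4, 47.6 and 44.0 CPM, snoU14 with 24.8 ± 1.68 and snR95 with 22.3 ± 0.121. Of 7 SPSNRNA features, snu32 had 2.02 ± 0.703 CPM, snu3 1.89 ± 0.448 and snu2 0.350 ± 0.0441. Of 171 SPTRNA features 110 were at 0, and the highest were SPBTRNAGLU.05 with 0.244 ± 0.220 CPM, SPBTRNAASN.04 with 0.199 and SPCTRNAPHE.04 with 0.165, near the floor. All 36 SPMIT features had 0 counts in all 9 libraries. What was done with mitochondrial reads is not stated, so these zeros do not show that the genes were silent.

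No count in any WT library was found for 409 of 6988 features, which over the 79748961 WT counts allows up to 0.0376 CPM each. They were 197 SPNCRNA, 110 SPTRNA, 36 SPMIT, 9 SPRRNA, 9 SPSNORNA and 48 features with a chromosome prefix. In all 9 libraries 300 of them were at 0. A count in at least 1 mutant library was found for 109, in all 6 for 3, and the highest total over the 3 libraries of a strain was 34, for the tRNA feature SPBTRNAALA.07 in those labelled rsm1 deletion. Next in those libraries were SPCTRNATHR.10, SPATRNAPHE.01, mug96 and SPCTRNAGLU.09, with means of 0.127 to 0.151 CPM. In the nup211-1435 libraries the highest were SPAC212.09c with 0.219 CPM, SPNCRNA.1065 with 0.144, SPATRNATHR.04, scn2 and SPNCRNA.70.

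The 43 protein-coding genes without a count fell into few places. Near an end of chromosome I or II, within 100 genes in the order of the reference, lay 16 of them, among them ayr2 and ftm3. There 12.2% of protein-coding genes were at 0, against 0.842% of all. Closer to the ends more were low. Of the 20 protein-coding genes within 20 genes of such an end, 18 had under 1 CPM, against 3.36% of the others. Some genes at 0 near the ends match another in annotation and exon length. Examples are the transporter genes SPBPB10D8.05c and SPBPB10D8.06c (1140 nt each), and SPAC750.02c and SPBPB2B2.16c (1458 nt each). Whether reads shared by such copies were dropped was not tested, so these zeros do not show that the genes were silent. Another 10 share over 50% of their exon with a feature on the same strand, and reads there may have been assigned elsewhere or dropped. Among these were ina22, ost5, sfc7, tco1 and new14. Of the 18 protein-coding genes with such an overlap, 55.6% were at 0.

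Repeated sequences made up another share of the genes without a count. The M genes of the mating-type cassettes, mat1-Mc, mat1-Mi, mat3-Mc and mat3-Mi, were all at 0 in every library, and the copies at mat1 and mat3 are the same sequence in an M cell. Of 13 Tf2 retrotransposons 5 were at 0 (Tf2-3, Tf2-5, Tf2-9, Tf2-12 and Tf2-13). The highest, Tf2-11, had 114, 186 and 130 counts, and Tf2-2 had 58, 65 and 90. These elements are near-identical, so the counts of single copies are uncertain. Outside all these groups were 8 genes. The cytochrome oxidase assembly gene coa3, the microtubule organizer gene mzt1, the ATP synthase assembly gene ina17, new15 (a mitochondrial ribosomal protein), SPCC18.20 and ura4, an enzyme gene of uracil synthesis used as a genetic marker, had no count in any of the 9 libraries. The other two, mug96 and SPBC12C2.14c, had counts in 5 and 4 of the 6 mutant libraries. The labels name no ura4 allele. The annotation used for counting is not given either. Zeros in all 9 libraries thus do not show that coa3, mzt1, ina17, new15, SPCC18.20 or ura4 were silent.

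Spread between the cultures was small for most features. The median coefficient of variation (CV, SD over mean, n = 3) was 11.7% at 1 to 10 CPM and 3.96% at 10 to 100. It was 2.70% at 100 to 1000 and 2.34% at 1000 CPM or more. The theoretical CV of counting error at the mean count had medians of 10.2%, 2.88%, 1.45% and 0.476% in these ranges. Being no median of CVs taken from 3 libraries, it is only a rough guide to the observed medians. The biological coefficient of variation of WT was 4.79%. Each feature's spread was compared with that of features of like abundance, by the quasi-likelihood dispersion of edgeR and the fitted distribution of that dispersion. By Benjamini-Hochberg adjustment 7 of 6086 features tested were called (0.115%), and 355 had an unadjusted p under 0.05. This count is fragile. It was 0 with a prior that was not robust and 0 with features under 10 CPM left out, 40 features were dispersion outliers in DESeq2, and without replicate 1, 2 or 3 it was 10, 7 and 5.

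**Figure D4:**
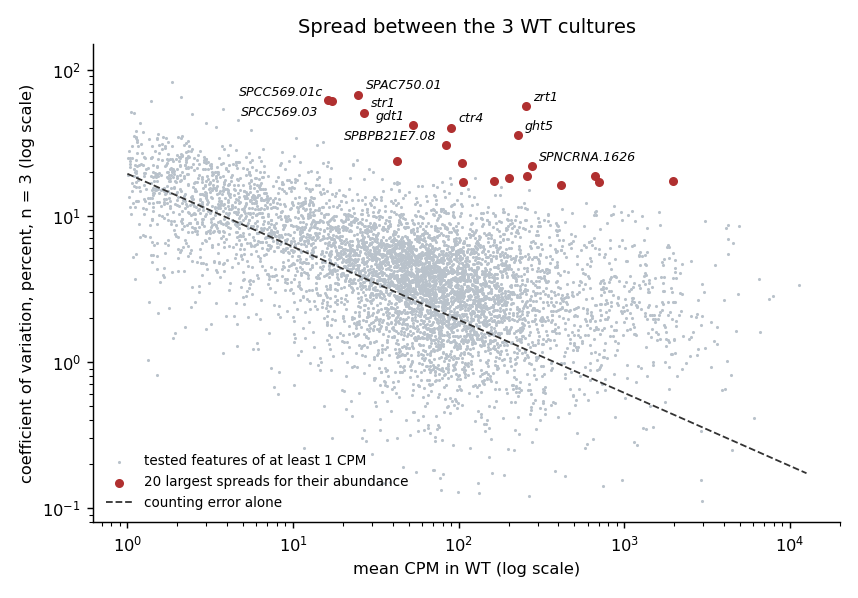
Coefficient of variation over the 3 WT cultures in percent against mean CPM, both on log scales, for tested features of at least 1 CPM (grey). Red points are the 20 features with the largest spread for their abundance, and the dashed line is the theoretical CV of counting error at each level. The gene zrt1 stands at 255 CPM with a CV of 56.3%.

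The zinc transporter gene zrt1 varied most, with 176, 420 and 168 CPM in replicates 1, 2 and 3 (adjusted p = 0.0158 by the edgeR dispersion test, as for the p-values below). Replicate 2 alone was high. The subtelomeric gene SPAC750.01, annotated as an aldo/keto reductase, had 6.21, 38.5 and 29.5 CPM (adjusted p = 0.0202 by edgeR), and here replicate 1 alone was low. The gene gdt1 had 27.5, 64.7 and 67.1 CPM, also low in replicate 1. The copper transporter gene ctr4 had 59.6, 79.9 and 129 CPM, highest in replicate 3. The glucose transporter gene ght5 had 163, 318 and 201 CPM, highest in replicate 2. The uncharacterized genes SPCC569.01c and SPCC569.03 had 20.9, 25.6 and 5.41 CPM and 23.6, 20.2 and 4.77 CPM, both low in replicate 3. These 5 genes shared an adjusted p of 0.0266 by edgeR. No single library was thus the odd one for all 7.

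The 13 features next in order were not called. The siderophore transporter gene str1 had 19.6, 18.1 and 42.3 CPM, the pseudogene SPBPB21E7.08 had 76.1, 112 and 62.7, and SPNCRNA.1626 is given above. The copper transporter gene ctr5, whose product works in a complex with Ctr4, had 83.1, 102 and 131 CPM, the order seen for ctr4. Then followed SPCC1235.01, plb1 (a phospholipase), rps29, hsp9, erg1 (squalene monooxygenase), sul2 (sulfate transporter), rpl4102, yhb1 (nitric oxide dioxygenase) and imp4 (rRNA processing), with highest over lowest library between 1.36 and 1.63. Of the first 20, 11 were highest in replicate 2, as were 2273 of the 5913 features of at least 1 CPM tested. Of the same 20, 7 (35%) lay within 100 genes of a chromosome end, against 3.13% of the 5913. SPCC569.02c, which lies between the called genes SPCC569.01c and SPCC569.03 in the gene order, had 2.81, 3.00 and 0.534 CPM. Further inward, SPCC569.04 went the other way with 0.474, 0.380 and 1.78 CPM, SPCC569.05c was highest in replicate 1 with 94.9, 74.6 and 69.4, and SPCC569.06 had 117, 113 and 107 CPM. Among these genes, far lower values in replicate 3 were thus seen in SPCC569.01c, SPCC569.02c and SPCC569.03 and not in the 3 named after them. Other reference genes lie between them, and their values are not given here.

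The mutant libraries, which the ranking did not use, offer other replicates of the same genes. Of the 20 features, 10 (50%) were among the 10% of largest spread in nup211-1435, against 10.1% of all features of at least 1 CPM, and 9 (45%) in the libraries labelled rsm1 deletion, against 10.03%. The gene zrt1 was even in the mutants, with 157, 168 and 177 CPM in nup211-1435 and 167, 171 and 164 where the label is rsm1 deletion, so WT replicate 2 stood apart from all 8 others. The gene ctr4 lay apart between strains, with 55.9, 30.0 and 58.3 CPM in the former and 297, 296 and 315 in the latter. SPAC750.01 had 322, 327 and 324 CPM in the former and 91.1, 54.2 and 112 in the latter, all above the WT libraries. SPCC569.01c had 27.3 to 32.8 and 26.2 to 29.2 CPM, so its low WT replicate 3 was below every other library.

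**Figure D5:**
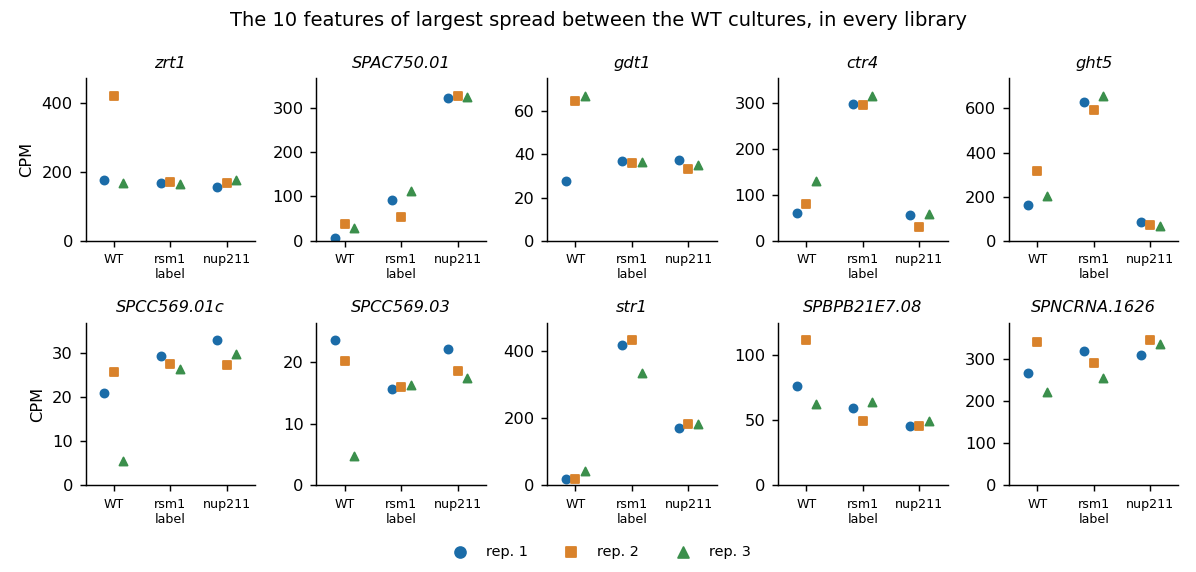
CPM in each of the 9 libraries of the 10 features with the largest spread between WT cultures, on axes that start at 0; rsm1 label stands for the libraries labelled rsm1 deletion, and symbols give the replicate number of a strain. In zrt1 only WT replicate 2 is high (420 CPM), in SPCC569.01c and SPCC569.03 only WT replicate 3 is low (5.41 and 4.77 CPM).

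Beside the counts by list that follow, 28.2%, 38.3% and 33.6% of all 6086 features tested were highest in replicates 1, 2 and 3, and no difference between lists was tested. Of 12 tested iron genes 6 were among the 10% of largest spread, against 10.01% of all, and 10 of the 13 in the list were highest in replicate 3. Among these fip1 (iron permease) had 21.2, 20.6 and 31.0 CPM and isu1 (iron-sulfur cluster assembly) 74.5, 62.7 and 86.0. Of 7 copper genes 3 were among the 10% and 5 were highest in replicate 3. Of 8 hexose transporter genes 5 were among the 10% and 7 were highest in replicate 2, with ght8 at 1088, 1285 and 1111 CPM. Of 12 chaperone genes 6 were among the 10%, with hsp16 at 73.2, 102 and 94.5 CPM and hsp90 at 4427, 3979 and 4314. Of 8 elongation factor genes 3 were among the 10% and 7 were highest in replicate 3. None of 24 tested meiosis genes and none of 12 polymerase II genes were among the 10%. The zinc list held 1 of 7, zrt1 itself. The iron, copper, hexose and zinc lists overlap with the 20 features named above, so their counts are no separate evidence.

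The ribosomal protein genes moved together by little. Of 139 genes 82 (59.0%) were highest in replicate 1, against 28.2% of all features, and 109 (78.4%) were lowest in replicate 3, against 35.9% of protein-coding genes of at least 10 CPM. The largest spreads among them were in short transcripts, as rps29 had 789, 766 and 569.2 CPM and rpl4102 had 460, 454 and 339. Exon length moved with this difference beyond the ribosomal proteins. The median log2 ratio of replicate 3 to replicate 1 was -0.13 for 42 ribosomal protein genes under 500 nt, -0.05 for the 97 longer ones and -0.09 for 96 other protein-coding genes under 500 nt, with features of at least 10 CPM. Over all 4608 such protein-coding genes it was 0.0033, and for the 756 of 3000 nt or more 0.02. The part of length in the lower ribosomal protein share of replicate 3 was not tested.

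Among the 100 most abundant features the spread was narrow, with a median ratio of highest to lowest library of 1.04. The largest spreads for their abundance were those of plb1 with 1730, 2361 and 1816 CPM, then tef101, tdh1, tef103 and eno101, whose replicate 3 was 1.16- to 1.19-fold above the lowest library. The steadiest was rpl6 with 2885, 2892 and 2883 CPM, then rpl8, rpl701, pgk1 and rps3, within 1.01-fold each.

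The ranking was much the same in the mutant strains. Of the 10 most abundant WT features 8 were also among the first 10 in nup211-1435 and 9 in the libraries labelled rsm1 deletion, and of the first 100 these numbers were 89 and 87. Spearman's rho of mean CPM with WT was 0.987 and 0.984 across features, as a description. In the libraries labelled rsm1 deletion, 93 of the 100 were called lower and 2 higher by the edgeR quasi-likelihood test, where over all 6227 features 70.7% were called, 34.1% lower and 36.7% higher. In nup211-1435, 91 were called lower and 0 higher by edgeR, against 64.9% called over all, 32.0% lower and 32.9% higher. DESeq2 called 95 lower and 2 higher under the label rsm1 deletion, 92 and 0 in nup211-1435. The 100 were chosen by their WT values, so no direction is read from these counts. With the first 100 chosen by each mutant strain's own libraries, an alternative added after the data had been seen, 80 were lower and 12 higher for the label rsm1 deletion, and 81 lower and 6 higher for nup211-1435. The medians of the WT-ranked 100 were -0.36 (log2) in both comparisons, with 0.014 (label rsm1 deletion) and 0.0073 (nup211-1435) over all features. These fold changes are on TMM-scaled libraries. Scaling to library totals, as CPM does, raised the median of all features by 0.143 and 0.135, so a fold read from the CPM values is higher by about that much than the log2 fold change printed beside it.

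The largest falls in the libraries labelled rsm1 deletion were those of ilv5 (branched-chain amino acid synthesis), from 3013, 3071 and 3085 CPM to 2011, 2042 and 2057 (log2 fold change -0.73, SE 0.028, edgeR adjusted p = 1.42e-11), rpl801 (-0.65), fba1 (-0.63), the EF-1 gamma gene SPAC29A4.02c (-0.61) and cpc2 (-0.59). The called rises were knh3, from 2073, 1932 and 2098 CPM to 3106, 3090 and 3113 (0.47, SE 0.034, edgeR adjusted p = 9.79e-09), and plb1 (0.44). The genes prl53, pma1 and pfk1 were not called, with -0.02, -0.03 and -0.04. In nup211-1435 the falls were largest for eca39, from 1782, 1763 and 1770 CPM to 835, 834 and 826 (-1.23, SE 0.027, edgeR adjusted p = 4.85e-14), then ilv5 (-0.75), tef101 (-0.70), plb1 (-0.66) and rpl801 (-0.65). Groups of libraries did not overlap for ilv5, knh3 and eca39. At the upper end fas1 (0.07), tif471 (0.015), tif51 (-0.0073), pma1 (-0.04) and hsp90 (-0.04) were not called. The gene plb1 thus stood higher than WT in one strain and lower in the other, beside a WT range of 1730 to 2361 CPM.

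Shares of counts were compared between strains by exact two-sided permutation tests, which with 3 against 3 libraries cannot go below p = 0.1. Ribosomal proteins took 18.7%, 18.8% and 18.2% in nup211-1435 and 18.2%, 17.9% and 18.3% in libraries labelled rsm1 deletion, all below the WT range of 21.5% to 22.4%. That list was trimmed after its values had been seen, so no p is given. In the shares that follow, the difference from WT is given first for the label rsm1 deletion and then for nup211-1435. The glycolysis share was lower by 0.603 and 0.364 percentage points and the elongation share by 0.216 and 0.353, each without overlap of the libraries (exact p = 0.1 each, adjusted 0.138 over 18 shares). In TPM the glycolysis differences were -0.403 and -0.145 (exact p = 0.1 each), and those of elongation -0.0667 (exact p = 0.4) and -0.197 (exact p = 0.1). The fermentation share was 0.122 higher and 0.119 lower, and in TPM the differences were 0.134 and -0.0519 (exact p = 0.1 each). The chaperone share was 0.160 lower (exact p = 0.1) and 0.0321 lower (exact p = 0.7), and the direction turned in TPM. The SPNCRNA share was 0.154 and 0.0403 higher and the SPSNORNA share 0.0168 and 0.0172 higher (exact p = 0.1 each), in TPM 0.123 and 0.132 higher. The SPRRNA share differed by -0.00126 and -0.00179, with overlapping libraries, and in TPM by -0.00224 and -0.0068 (exact p = 0.4 and 0.2 on both scales).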

How the data were processed

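Poly(A)+ RNA was extracted with hot acid phenol and sequenced as strand-preserving TruSeq paired-end libraries on a NovaSeq X Plus, per the labels' protocols. The authors deposited raw read counts per feature for 9 libraries, not normalized. The submitters' processing notes name HISAT2 2.1.0, SAMtools, HTSeq 0.10.0, DESeq2 and build ASM294v2. Annotation, strand and multi-mapping settings: not given in the sources used here. The authors' tables of mutant comparisons were not used.

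Samples were grouped by title. Features were ranked by mean CPM over the 3 WT libraries (20.98 to 28.11 M counts a library over the series). Names, exon lengths (for TPM), overlaps and gene order came from assembly ASM294v3, where 6836 features were matched by identifier, 3 by synonym and 149 not at all. As its build differs from that of the files, no coordinates or sequences are given and no promoter motifs were searched. SPMIT features are given by identifier.

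R 4.3.3 with edgeR 4.0.16 (filterByExpr with minimum count 10 and minimum total 15, TMM, robust quasi-likelihood, no covariate), limma 3.58.1 and DESeq2 1.42.0 were used, with Python 3.11.15 and scipy 1.17.1. Spread was fitted on the 3 WT libraries and tested by the upper tail of the fitted F distribution of the dispersions. Mutants were compared in a fit of all 9 libraries. Calls were made at an adjusted p under 0.05 (Benjamini-Hochberg). The steps were tested on simulated counts.

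The ranking, members and gene lists were chosen with earlier results of these data known. The copper and zinc lists were written after zrt1 and ctr4 had been seen to vary most. Genes whose annotated product differs from their list (aat1, lsd1, pwp1, pck1, zip1, ppi1, rpp21 and rpp40) were removed after values had been seen, so the lists they came from carry no test. Share differences between strains carry a p for glycolysis, fermentation, elongation, chaperones and the RNA classes. Named genes are the first 20 by CPM, the first 10 by TPM, the first 3 of each class, the ends and up to 2 others of each list, named silent protein-coding genes, the 20 largest spreads, the 5 largest and smallest spreads and changes among the first 100, and the 5 silent features highest in each mutant. The other genes were added after their values had been seen.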

Additional observations from a re-analysis of the deposited data

How the results depend on the processing

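In TPM in place of CPM, the first 50, 100 and 500 features held 24.1%, 39.8% and 72.3%, ribosomal proteins 41.6%, glycolysis 3.91%, fermentation 1.122%, elongation 1.79%, chaperones 1.38%, SPNCRNA 0.833%, SPRRNA 0.025% and SPSNORNA 0.184%. Among protein-coding features alone, the first 100 and 500 held 29.07% and 61.3%. Counting features with a mean below 0.1 CPM as silent gave 636 in place of 409. The chaperone share differences turned to 0.00755 (exact p = 0.8) and 0.0456 (exact p = 0.4) in TPM, and with a library left out the second ran from -0.0807 to 0.0252 (exact p = 0.8, without nup211-1435 replicate 3). The count of features called for spread was 0 without low features and 0 with a prior that was not robust, 40 by DESeq2, and 5 to 10 with a library left out. Library totals as scaling gave 5 and 5 higher among the first 100 (label rsm1 deletion first, then nup211-1435, here and below), and leaving out a library 0 to 1 higher in nup211-1435. Choosing the 100 by the mutant libraries, added after the data had been seen, gave 12 and 6 higher. The cause of these changes was not tested, except that TPM divides by length. Of the other values under an alternative, 262 kept their direction, side of the threshold or size.

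Same-numbered replicates of WT and mutants did not deviate together (r of -0.08, -0.13 and -0.06, and 0.02, 0.01 and 0.04), so numbers were not taken as pairs. With a replicate block, 2 and 0 of the 100 were higher and 93 and 91 lower, and sign flips gave a smallest p of 0.25 for the shares (-0.603 and -0.364 for glycolysis). Replicates are 3 a strain, single copies of repeats and overlapping features cannot be resolved, and depth limits values under about 0.119 CPM.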
